A study of Erythranthe guttata with 80 samples.

Results

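The last 2 leaf stages sampled in a coastal perennial line of Mimulus guttatus (yellow monkeyflower) were compared, 8leaf against 6leaf. The comparison takes 20 of the 80 libraries in the series, the 10 labelled Coast 8leaf and the 10 labelled Coast 6leaf, and these were picked by their ecotype and tissue labels rather than by any measured value. The series holds 8 groups of 10 plants with 1 library per plant. The Coast line has 5 of these groups, its floral bud and 4 leaf stages named for the leaves on the plant (2leaf to 8leaf), and the Inland line has the bud and the first leaf stages only, 2leaf and 4leaf. RNA was read by 3′-Tag-Seq, in which each transcript contributes reads from its 3′ end.

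All 20 plants came from self-fertilised seed of accession SWB-4, and none was treated or genetically modified. They shared a growth chamber with long days, and tissue was taken once from each plant within a fixed afternoon window. Stage of sampling was assigned to plants at random, and leaf pairs were taken as they neared full size. The column labels give the sampled tissue as the 3rd leaf at 6leaf and the 4th leaf at 8leaf, so the stages differ in which leaf was sampled, in the number of leaves and in the time taken to reach the stage, and these cannot be told apart. The age in days of each plant is not given in the sources used here. The Inland plants used for reference below were of accession LMC-17, an annual. Each ecotype is represented by 1 accession, so a difference between ecotypes cannot be told apart from one between 2 lines.

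In an annual herb the shoot turns to flowering early, whereas a perennial keeps making leaves for longer. As successive leaf pairs form, the share of a leaf's RNA devoted to photosynthesis, cell division and hormone responses shifts with the age and position of the leaf. Gibberellins promote stem growth and flowering, and jasmonates hold growth back while raising defence. The question addressed here is which genes still change between the last leaf stages that precede the coastal floral bud.

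The labels were checked against markers, hub genes of co-expression modules that the study had built from its 2leaf, 4leaf and bud libraries. A set of 7 leaf genes summed to between 3447 and 5248 CPM (a gene's counts over the library's TMM-scaled total, on a scale common to the 80 libraries) at 6leaf, with a median of 4449. At 8leaf the sum ran from 2970 to 4709, with a median of 3657, and in Coast buds it did not exceed 792.6. A set of 5 floral bud genes summed to at most 12.3 CPM at 6leaf and 9.95 CPM at 8leaf, against 225 to 1942 CPM in Coast buds. All 20 libraries had the leaf genes high and the bud genes low. In whole-tissue RNA, fewer cells of a type and less RNA per cell cannot be told apart.

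Depth was similar in both groups. Libraries held 2842580 to 4816394 counts at 6leaf (median 4089359.5) and 2689947 to 5366139 counts at 8leaf (median 4460089.5). Between 18157 and 19165 of 28140 genes had at least 1 count in a library. Of the spread between the 20 libraries, 28.2% went with library pool, 1 of 4 sets of 20 samples to which the libraries had been randomised, and 8.16% with stage (adonis2, p = 0.0115 by permutation within pools). The 8leaf plants 1, 4 and 10 stood apart from the rest, with TMM factors of 1.132, 1.153 and 1.165 against at most 1.066 in the other 17 libraries. Their 10 most abundant genes took 6.84%, 6.49% and 6.07% of counts, less than in any other of the 20 libraries. Counts of genes called between 8leaf and 6leaf, and some of the counts built on them, are therefore also given without these 3 plants. That alternative was chosen after the data were seen.

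Few genes were called between 6leaf and 8leaf. Of 14139 genes tested with edgeR's quasi-likelihood F test and library pool as a term, 112 passed a Benjamini-Hochberg adjusted p of 0.05, which is 0.792% of those tested. Of the 112, 88 were higher at 8leaf (0.622% of genes tested) and 24 were lower (0.17%). The excess of higher calls depended on the fit, with 100 higher and 46 lower in voom and limma, 179 and 144 in DESeq2, 102 and 65 in a fit of the 40 Coast leaf libraries, and 72 and 49 in a fit of all 80 libraries. With scaling by library size alone 26 of 207 calls were lower. At an unadjusted p below 0.05 in edgeR there were 2046 genes, 14.5% of those tested, 986 of them higher. A share of about 0.05 would be there if no gene changed, so a gene not called is not shown to be unchanged. The adjusted p of the last gene inside the threshold was 0.049962 and that of the first outside it 0.050066.

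The changes were moderate in size. Among the 88 genes higher at 8leaf the median log2 fold change was 0.802 and the largest 2.07. Among the 24 lower genes the median was -0.627 and the largest fall -2.11. Only 29 of the 112 changed by more than 1 on the log2 scale, 26 of them higher and 3 lower. Over all tested genes the median absolute log2 fold change was 0.123. Called genes had a median level of 37.2 CPM against 16.0 CPM over all genes tested. The higher genes had a median of 32.3 CPM and a maximum of 524 CPM, and the lower genes a median of 63.1 CPM and a maximum of 973 CPM.

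**Figure D1:**
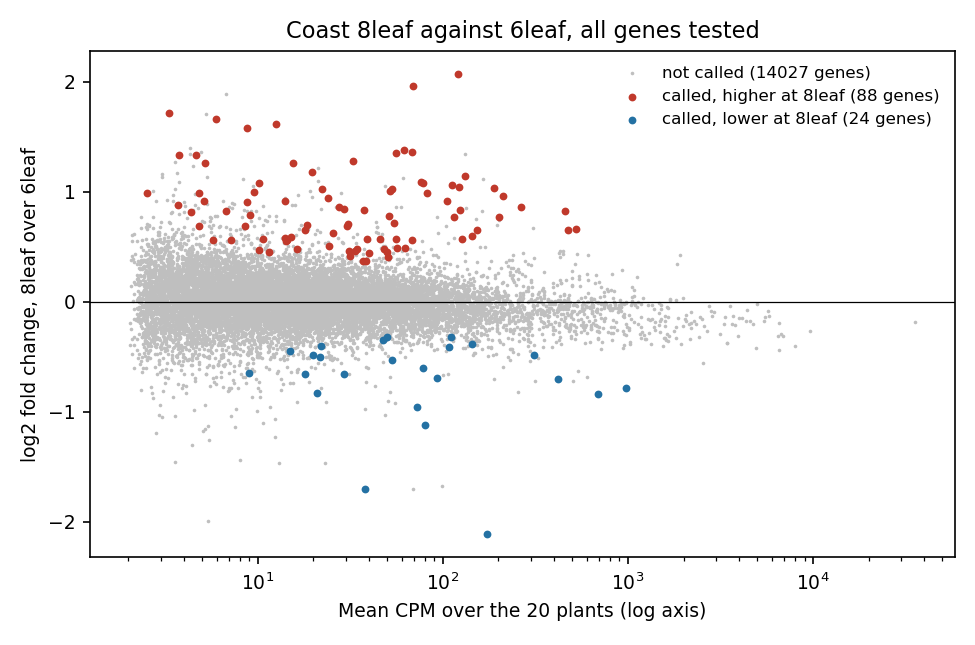
Each point is 1 of the 14139 genes tested, with its mean level over the 20 plants (CPM, log axis) against its log2 fold change at 8leaf over 6leaf (edgeR, TMM scaling). The 88 genes called higher (red) spread up to 2.07, the 24 called lower (blue) reach -2.11, and no gene above 1000 CPM was called.

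Taken as the difference of mean log2 CPM within each of the 4 library pools, all 112 genes had the sign of the pooled value in every pool, as did 25.1% of all tested genes, but the 112 were selected on these same plants with pool as a term, which favours such agreement. With 5 plants per pool, however, only pool 2 gave calls of its own in edgeR, 33 genes. Of the 8leaf plants that stood apart, plants 1 and 4 were in pool 2 and plant 10 in pool 4. Without 8leaf plants 1, 4 and 10 the count fell to 24 genes, 23 higher and 1 lower, and 23 of those 24 were among the 112. All 112 genes kept their sign without those plants, and their median absolute log2 fold change was 0.651 against 0.716 with them. The number of calls also moved by over 1.5 times when single plants were left out. It was 40 without 6leaf plant 5, 43 without 6leaf plant 3, 51 without 8leaf plant 3, 62 without 8leaf plant 1, 69 without 8leaf plant 4 and 174 without 8leaf plant 8.

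In 9 of all tested genes (0.0637%) the levels of the 10 plants at 8leaf did not overlap those of the 10 plants at 6leaf, and 8 of those 9 were called, all of them higher at 8leaf. The number was also 9 without 8leaf plants 1, 4 and 10, with TMM factors recomputed without the filter on low counts. At a fixed scaling, leaving plants out cannot remove such a gene, so nothing is read from that count. The identifiers of this annotation are not paired with gene names in the count table, and none of the 28140 occurs in the reference table of gene symbols used here. The called genes are therefore given here without names or roles, and only the 2 with the smallest p in each direction are described by identifier, a choice made after their values were seen.

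Migut.A00013 was among the genes whose groups did not overlap. Its level at 6leaf ran from 53.99 to 101 CPM (median 68.7), and at 8leaf from 111.9 to 205.1 CPM (median 155.2). Every 8leaf plant was above every 6leaf plant. The log2 fold change was 1.07 ± 0.12 (SE, n = 10 plants per stage), a 2.09-fold higher level, with an adjusted p of 0.000276 in edgeR. It was 1.02 without 8leaf plants 1, 4 and 10 and between 0.64 and 1.29 in the single pools, as differences of mean log2 CPM. At 2leaf and 4leaf the Coast medians were 71.5 and 78.5 CPM, near that at 6leaf, so the medians of the first 3 leaf stages lay close together and the last stood above them. The Coast bud median was 80.0 CPM.

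Migut.A00165 also separated the groups without overlap. It ran from 20.3 to 53.8 CPM at 6leaf (median 32.4) and from 62.4 to 139.3 CPM at 8leaf (median 79.8), the highest value being that of 8leaf plant 10. The log2 fold change was 1.38 ± 0.17 (SE), with an adjusted p of 0.000276 in edgeR, and 1.202 without the 3 plants that stood apart. The Coast medians before that were 45.8 CPM at 2leaf and 56.3 CPM at 4leaf, and its fall from 4leaf to 6leaf was called (log2 change -0.98). The 8leaf median was above all 3 earlier ones, and the Coast bud median was 41.3 CPM.

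The gene with the largest fall was Migut.D00824. It ran from 109.8 to 468.8 CPM at 6leaf (median 290.1) and from 22.3 to 134.8 CPM at 8leaf (median 62.8). The groups overlapped only through 6leaf plant 2, the lowest of its stage, and 8leaf plant 7, the highest of its own. The log2 fold change was -2.11 ± 0.32 (SE; adjusted p = 0.00215 in edgeR) and -1.70 without 8leaf plants 1, 4 and 10, the lowest values being those of 8leaf plants 4 and 10. In single pools it lay between -3.37 and -1.16. The Coast medians at 2leaf and 4leaf were 592 and 564 CPM, so the level stayed high to 4leaf. Its fall from 4leaf to 6leaf was also called (log2 change -0.87), and Coast buds had a median of 37.9 CPM.

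Migut.J00549 fell by 1.12 ± 0.20 (SE) on the log2 scale, from a range of 57.04 to 175.6 CPM at 6leaf (median 107) to one of 19.6 to 83.9 CPM at 8leaf (median 48.98). Its adjusted p was 0.00772 in edgeR, and 0.072 without 8leaf plants 1, 4 and 10, which had the 3 lowest values, where the log2 fold change was -0.93 ± 0.20 (SE). The groups overlapped, with 7 of the 10 plants at 8leaf below all plants at 6leaf. Its fold change was alike in the 4 pools, between -1.36 and -0.90. Its Coast medians at 2leaf and 4leaf were 206.6 and 303 CPM, and its fall from 4leaf to 6leaf was called as well (log2 change -1.41).

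**Figure D2:**
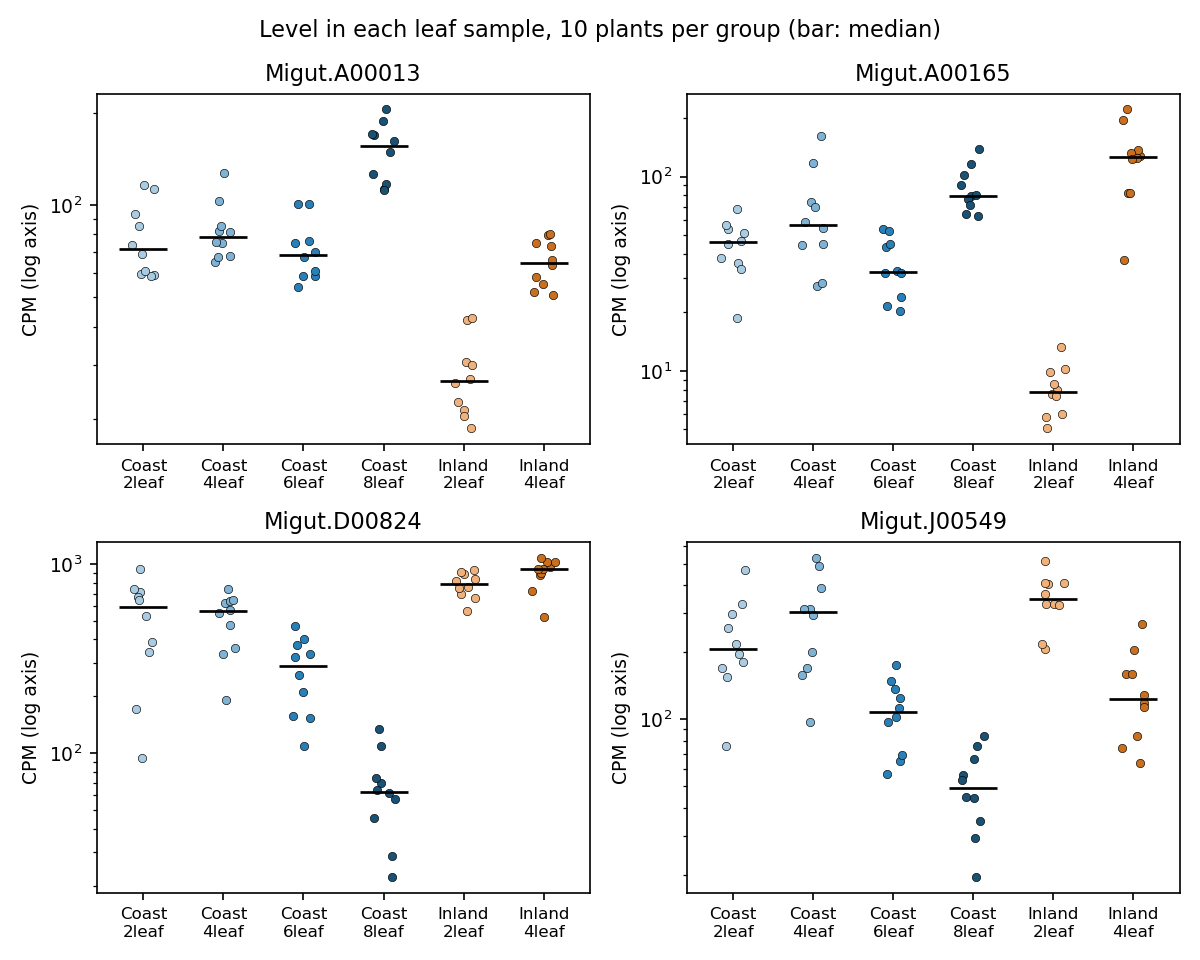
Level of 4 genes in each leaf sample (CPM, log axis), 1 point per plant, 10 plants per group, with a bar at the median. At Coast 8leaf, Migut.A00013 and Migut.A00165 lie above all Coast 6leaf plants, and Migut.D00824 has a median of 62.8 CPM against 290.1 CPM at 6leaf.

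The called genes were then followed through contrasts between groups that share no library with the 20 plants compared here. The fits of 80 or 40 libraries that gave those contrasts do include the 20 plants, which enter the scaling, pool terms and estimates of spread. In the Inland line, from 2leaf to its own last leaf stage, 4leaf, 48 of the 88 genes higher at Coast 8leaf were also called higher (edgeR, 80 libraries in 1 fit). Over the genes tested in both comparisons 10.8% were called higher in that Inland step. Only 3 of the 88 were called lower there, against 12.3% of all genes. Of the 88 genes, 71 had a positive Inland value, and their median Inland log2 change was 0.571 against -0.0042 over all genes. Of the 24 genes lower at Coast 8leaf, 9 were called lower in the Inland step. With TMM scaling none was called higher with edgeR or with voom and limma, and 1 was higher at an unadjusted p below 0.05 in edgeR. With edgeR and scaling by library size alone 3 of the 24 were called higher and 4 lower.

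For the 88 higher genes, other settings were added after the data were seen. With voom and limma 46 of the 88 were called higher in the Inland step, and without Inland 4leaf plant 4 the number was 48. With scaling by library size alone 59 of the 88 were called, but that scaling also called 25% of all genes higher. Of the 23 genes called higher without 8leaf plants 1, 4 and 10, 18 were called higher in the Inland step.

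In the early step of the Coast line, 4leaf against 2leaf in a fit of 40 libraries, 17 of the 88 genes were called higher and 11 lower, with 9.99% and 9.74% of all genes called in those directions. Their median log2 change in that step was 0.068. The difference between the Inland and the Coast early step was tested directly, a contrast chosen after the data were seen. It was positive and called in 39 of the 88 genes and negative and called in 3, against 5.41% and 5.09% of all genes. In 6 of the 24 lower genes it was negative and called. The 24 lower genes gave 2 called higher and 5 called lower in the Coast early step.

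**Figure D3:**
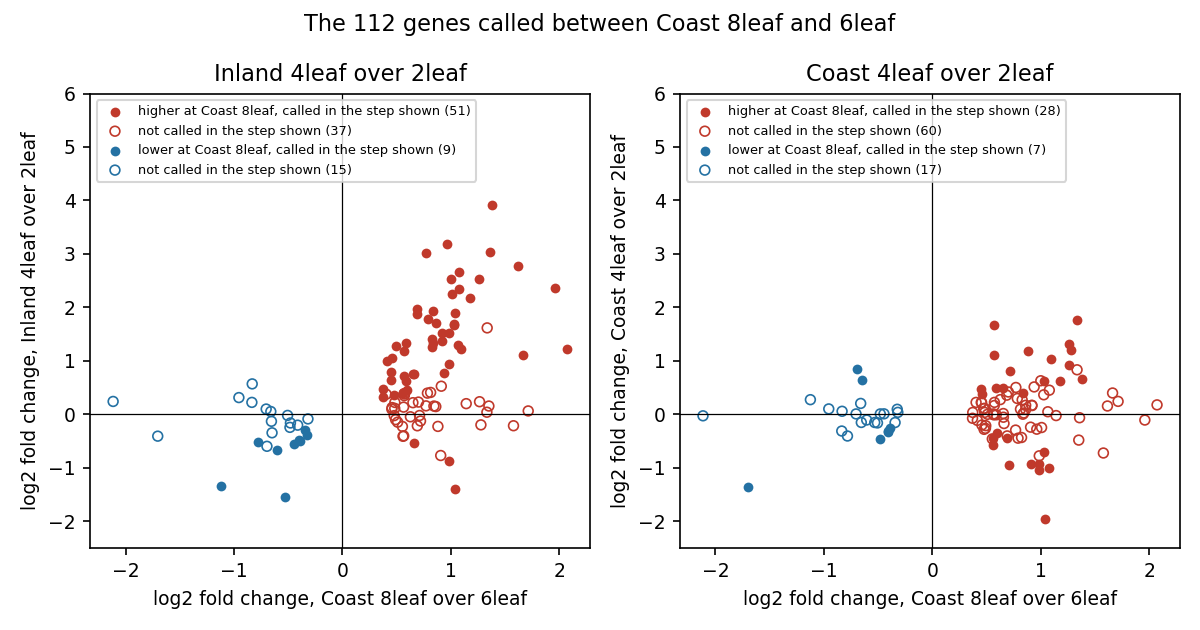
The 112 genes called between Coast 8leaf and 6leaf, with their log2 fold change in that comparison (horizontal) against that of Inland 4leaf over 2leaf (left) or Coast 4leaf over 2leaf (right). Filled points were called in the step shown, in either direction. Of the 88 genes higher at Coast 8leaf (red), 71 lie above 0 on the left, where their median is 0.571, and their median on the right is 0.068.

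The genes printed above differed in this respect. Migut.A00165 had a median of 7.78 CPM at Inland 2leaf and 125.7 CPM at Inland 4leaf, and those groups did not overlap. Its Inland log2 change was 3.91 ± 0.28 (SE), against 0.65 ± 0.24 in the Coast early step. Migut.A00013 had Inland medians of 26.5 and 64.7 CPM and an Inland log2 change of 1.29 ± 0.13 (SE). Migut.J00549 fell in the Inland step by 1.34 ± 0.25 (SE). Migut.D00824, the gene with the largest fall in the Coast line, was at Inland medians of 788 and 945 CPM and changed by 0.24 ± 0.32 (SE; adjusted p = 0.659 in edgeR), so no Inland fall was detected. Its level in Inland buds had a median of 233.5 CPM.

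Between the lines, at 2leaf, 34 of the 88 genes higher at Coast 8leaf were called higher in Coast plants and 18 lower, against 31.2% and 24.4% of all genes. Of the 24 lower genes, 12 were called lower in Coast than in Inland plants at 2leaf and 4 higher. In Coast buds against Coast 2leaf, 20 of the 24 lower genes were also called lower, where 35% of all genes were. Without 8leaf plants 1, 4 and 10 the 23 genes called higher gave 8 higher and 10 lower in buds, and the 1 called lower was also lower in buds. The 88 higher genes were mixed there, 40 called higher and 32 lower, against 34% and 35% of all genes.

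Steps of the Coast leaf series were set side by side in 1 edgeR fit of its 40 leaf libraries, with 14662 genes tested. The step from 4leaf to 6leaf shares its 6leaf plants with the comparison described here. In that fit 2880 genes (19.6%) were called from 2leaf to 4leaf, 3208 (21.9%) from 4leaf to 6leaf and 167 (1.14%) from 6leaf to 8leaf. The difference between the last and the first step was called in 669 genes (4.56%), 340 with the later step more positive and 329 with it more negative. Without 8leaf plants 1, 4 and 10 the last step had 45 calls, 43 of them higher, and the difference of steps 579. The 167 genes included 88 of the 112 above. By mean level, 72 of the 88 higher genes had their highest Coast leaf level at 8leaf and 22 of the 24 lower genes their lowest, a count that their selection favours. The difference between the last and the first step was called positive in 35 of the 88 (2.24% of genes tested in both fits) and negative in 6 of the 24 (2.26%), but this contrast contains the values that chose them and nothing is read from it.

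Genes that the study named were grouped into 13 lists of 89 genes in all, of which 63 passed the filter on low counts. The study picked the hub genes among them on 2leaf, 4leaf and bud libraries, not on the 20 libraries compared here. Its hormone candidates came from the genome annotation. Many that the study printed, and that are therefore listed here, differed between ecotypes in its 2leaf, 4leaf and bud libraries. None of the 63 was called between 6leaf and 8leaf with edgeR, where 0.792% of all genes were, nor with voom and limma. DESeq2 called 1, lower at 8leaf. At an unadjusted p below 0.05 edgeR had 10 of the 63, against 14.5% of all tested genes. Without 8leaf plants 1, 4 and 10 edgeR called 0 of 64 list genes, with 4 at an unadjusted p below 0.05.

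The photosynthesis and chloroplast list, the same 7 genes that served as leaf markers, holds a photosystem II component, an antioxidant enzyme, a chaperone and proteins of the chloroplast's own ribosome. All 7 genes had negative values, from -0.29 to -0.14 on the log2 scale. Their median was -0.236 against 0.0036 over all genes tested, and 6 of them had an unadjusted p below 0.05 in edgeR. All 7 are abundant, with means over the 20 plants from 231 to 1009 CPM. Of the 1270 tested genes between 100 and 1000 CPM, a class defined after the values were seen, 845 had negative values. The median of that class was -0.0597, and 330 of its genes had an unadjusted p below 0.05 in edgeR. RPL4 (Migut.N00890), a chloroplast ribosomal protein, came nearest to the threshold. It ran from 439 to 556 CPM at 6leaf (median 513) and from 348.3 to 464.7 CPM at 8leaf (median 419). The groups overlapped, and the lowest 8leaf values were those of plants 4, 1 and 10. Its log2 fold change was -0.22 ± 0.06 (SE), with an adjusted p of 0.0992 in edgeR, and it was the 1 list gene that DESeq2 called.

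The other abundant genes of this list did not pass either. The chloroplast ribosomal S5 gene (Migut.H01481) had medians of 1071 CPM at 6leaf and 965 CPM at 8leaf, a log2 fold change of -0.24. CSP41A (Migut.D00296), which binds chloroplast RNA, had medians of 733 and 617 CPM and a fold change of -0.27. A DnaJ/Hsp40 chaperone (Migut.K00479), of a family that helps proteins fold, had medians of 986 and 879 CPM and a fold change of -0.14. The same 3 plants were the lowest at 8leaf for CSP41A and the chaperone. Their part in these values was not tested further, but without them all 7 genes still had negative values, with a median of -0.151 and a smallest adjusted p of 0.521. In the Inland step from 2leaf to 4leaf all 7 were called lower, with a median of -0.446, where 10.9% of all genes in that fit were. The 7 are hub genes of 1 co-expression module that the study built on libraries including these Inland plants. Such genes move together, so 7 of 7 is not 7 separate results, and nothing is read from that share.

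The most abundant genes, a class defined after the values were seen, also had mostly negative values. Of the 124 tested genes above 1000 CPM, 110 had negative values, with a median of -0.176. None of the 124 was called with edgeR or voom and limma, DESeq2 called 5, all lower, and 35 had an unadjusted p below 0.05 in edgeR. Among the 5002 genes under 10 CPM, 45% had negative values. Without 8leaf plants 1, 4 and 10, 95 of the 124 were negative and the median was -0.066. With scaling by library size alone 92 of the 124 were negative and 1 was called, higher at 8leaf.

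The cell division list (microtubule proteins, a cyclin-dependent kinase, a histone and the DNA methyltransferase CMT3) was called higher over both earlier Coast steps and in neither direction over the last. All 6 genes were called higher from 2leaf to 4leaf, with log2 changes of 0.87 to 0.97, where 9.79% of all genes were. All 6 were again called higher from 4leaf to 6leaf, with changes of 0.67 to 0.88, where 10.5% were. The study chose the 6 as hub genes of 1 co-expression module, on libraries that include these Coast 2leaf and 4leaf plants. Genes chosen that way move together, so 6 of 6 is not 6 separate results, and nothing is read from those shares. From 6leaf to 8leaf in the same fit the changes lay between -0.02 and 0.43, and 0 of the 6 were called. The summed level of the 6 genes had medians of 180.5, 335, 660 and 694 CPM over the successive Coast leaf stages, and the ranges at 6leaf (364 to 770) and 8leaf (530 to 1129) overlapped.

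Histone H2A6 (Migut.D02117), a core protein of chromatin, had the largest late value of these genes. It ran from 220 to 495 CPM at 6leaf (median 390) and from 311 to 810 CPM at 8leaf (median 467), with plants 10, 1, 5 and 4 the highest at 8leaf. The log2 fold change in the 20 plants was 0.43 ± 0.16 (SE; adjusted p = 0.196 in edgeR). The difference between the last and the first step did not pass for any of the 6 genes. It was largest for TPX2 (Migut.M00163), at -0.88 ± 0.35 (SE), and nearest to the threshold for the kinase (Migut.C00348), at -0.84 ± 0.27 with an adjusted p of 0.0638. The other genes of the list had smaller late values. The cyclin-dependent kinase had medians of 48.6 CPM at 6leaf and 47.2 CPM at 8leaf, a microtubule or kinesin gene (Migut.H01772) 102.4 and 105.1 CPM, and CMT3 (Migut.D02536) 34.58 and 33.97 CPM, with log2 fold changes of 0.11, 0.09 and 0.23. In the Inland step from 2leaf to 4leaf 0 of the 6 were called, with values between -0.07 and 0.34. Without 8leaf plants 1, 4 and 10, 5 of the 6 genes had negative values from 6leaf to 8leaf, against 1 of 6 with all plants and 0 of 6 when all plants were scaled by library size alone.

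**Figure D4:**
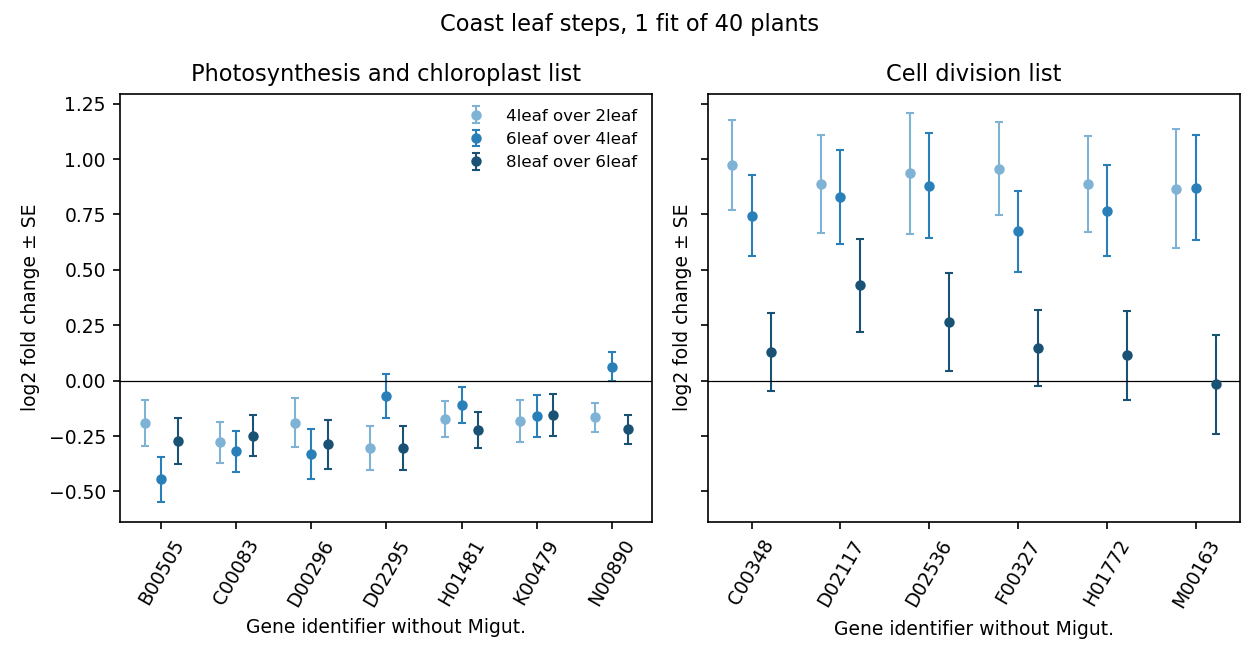
Log2 fold change (± SE) of each gene of the photosynthesis and chloroplast list (left, 7 genes) and the cell division list (right, 6 genes) in the 3 Coast leaf steps, from 1 fit of 40 plants. The division genes lie between 0.67 and 0.97 in the first and second steps and between -0.02 and 0.43 in the last.

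In the gibberellin list, GA3ox1 (Migut.I00834), which makes the final step to bioactive gibberellin, had the largest change. It ran from 10.9 to 42.8 CPM at 6leaf (median 29.2) and from 6.62 to 35.8 CPM at 8leaf (median 12.1). Most 8leaf plants lay in the lower part of the 6leaf range or under it, and 8leaf plant 8 lay among the higher 6leaf plants. The log2 fold change was -0.78 ± 0.24 (SE) and did not pass (adjusted p = 0.130 in edgeR). In the fit of 40 plants it was called lower in both earlier steps, with log2 changes of -0.59 from 2leaf to 4leaf and -0.70 from 4leaf to 6leaf, and gave -0.77 over the last (adjusted p = 0.0553). In the fit of all 80 libraries, and without 6leaf plant 10 or without 8leaf plant 8, its fall from 6leaf to 8leaf was called. GA20ox1 (Migut.F00399), one enzyme earlier in that pathway, had medians of 50.1 and 45.2 CPM and PIF1 (Migut.M00105), a light-responsive growth regulator, 53.6 and 57.2 CPM. Neither passed, with log2 fold changes of -0.30 ± 0.17 and 0.04 ± 0.13 (SE). The other PIF1 gene (Migut.D00504) gave -0.19 ± 0.16 (SE) and did not pass either.

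None of the listed jasmonate genes passed, of which 5 were tested for synthesis, 4 for turnover and 7 for signalling. These lists do not cover the whole pathway, and CYP94B1 and JAZ9, which the study discusses, are not in them. LOX2 (Migut.D00552), the lipoxygenase that opens jasmonate synthesis, had medians of 146.7 CPM at 6leaf and 132.8 CPM at 8leaf, with a log2 fold change of 0.03 ± 0.19 (SE), after being called lower over both earlier Coast steps. Its ranges at both stages overlapped, from 58.1 to 202.6 CPM at 6leaf and from 58.7 to 232.9 CPM at 8leaf. OPR1 (Migut.B00747), an oxophytodienoate reductase, had medians of 9.64 and 6.42 CPM and gave -0.58 ± 0.25 with an adjusted p of 0.293. Its relative Migut.B00744 had medians of 13.6 CPM at both stages. Such copies could share reads, and how reads were divided between them was not checked. In jasmonate turnover IAR3 (Migut.I00994), an amidohydrolase of hormone conjugates, had medians of 7.39 and 5.00 CPM and a log2 fold change of -0.68 ± 0.21 (SE; adjusted p = 0.122). The ILL6 gene Migut.C01122, of the same family, had medians of 1.84 and 3.85 CPM and gave 0.72 ± 0.36 (SE; adjusted p = 0.365). The other ILL6 gene, Migut.N03278, had medians of 5.38 and 6.83 CPM and gave 0.40 ± 0.22 (SE). LAF3 (Migut.N01845), also in the turnover list, had medians of 8.98 and 8.82 CPM and gave 0.21 ± 0.18 (SE).

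In jasmonate signalling 7 genes were tested, with log2 fold changes from -0.15 to 0.36 and none at an unadjusted p below 0.05 in edgeR. MYC2 (Migut.E00934), the main transcription factor of the pathway, had medians of 39.8 and 40.7 CPM. Its log2 fold change was 0.06 ± 0.11 (SE), after a called rise of 0.98 from 2leaf to 4leaf and a called fall of -0.56 from 4leaf to 6leaf. MYC6 (Migut.E01090), a related factor, gave -0.15, the repressor JAZ3 (Migut.D02043) 0.01 and the jasmonate receptor COI1 (Migut.F00706) 0.10. The other copy of MYC2 (Migut.B01912) gave 0.36 ± 0.34 (SE) and that of COI1 (Migut.F01428) 0.20 ± 0.10. These copies are named after their values were seen.

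Of the remaining lists, the ribosome and protein folding list had 9 genes tested, with changes between -0.10 and 0.09. Cytosolic ribosomal S19 (Migut.G00718) had medians of 884 CPM at 6leaf and 929 CPM at 8leaf. In the step before, from 4leaf to 6leaf, 7 of these 9 had been called higher, where 10.5% of all genes were. These 9 are also hub genes of 1 module, chosen on libraries that include the 4leaf plants, so the 7 are not separate results. SOS1 (Migut.E00570), the sodium exporter of the salt response, had medians of 20.99 and 23.22 CPM and gave 0.09 ± 0.12 (SE) and CIPK8 (Migut.N02833), a protein kinase, 0.03 ± 0.10. APRR7 (Migut.L01650), a clock regulator, had medians of 6.63 and 7.93 CPM and gave 0.28 ± 0.19. The auxin, cell wall, defence and stress lists had 3, 1, 1 and 7 genes tested and 0 called, with 0 at an unadjusted p below 0.05 in edgeR.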

How the data were processed

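Per the labels and the methods of the study, the authors trimmed reads with cutadapt, aligned them with BWA to the M. guttatus v2.0 genome, filtered alignments with SAMtools and counted reads per gene with HTSeq 0.6.1. The deposited values are raw counts, whole numbers that are not normalised, for 28140 genes, of which 2988 had a total of 0.

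Calls came from edgeR 4.0.16 in R 4.3.3: filterByExpr on the groups (minimum count 10, minimum total 15), TMM scaling, library pool as a term, the quasi-likelihood F test and Benjamini-Hochberg adjustment over all genes tested, with a threshold of 0.05. SE came from the fold change and its F. CPM were scaled over 80 libraries. Other comparisons used 1 fit of 40 or of 80 libraries. Adonis2 (vegan 2.7.1) used 99999 permutations within pools on log2 CPM with a prior count of 2. Alternatives were voom with limma 3.58.1, DESeq2 1.42.0, other scalings, filters and samples. The scripts were tested on simulated data.

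Members and lists were chosen with earlier results of these data known. The rule for named genes took the 10 largest folds, 5 smallest p and 5 highest levels per direction from the calls whose mean count reached 10 in a group (30 genes). Because they lack names, only 2 per direction are printed, chosen after their values were seen. It also took list genes by counts, with values for at most 4 uncalled genes per list. TPX2 is printed outside that rule, after its values were seen. Plant numbers come from the labels and nothing says that equal numbers share a source.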

Additional observations from a re-analysis of the deposited data

Results flagged for a closer look

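The difference between the last and the first Coast leaf step was called in 669 genes (edgeR, 40 libraries), and 5 genes printed in the report were among them. It was 0.99 for Migut.A00013, -2.06 for Migut.D00824 and -1.41 for Migut.J00549, which were selected on the last step. For the named genes it was -0.996 for MYC2 (Migut.E00934) and 0.61 for SOS1 (Migut.E00570), which was called lower from 2leaf to 4leaf and showed no called change from 6leaf to 8leaf.

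The early step, 4leaf minus 2leaf, differed between the Inland and the Coast line by a test of the difference itself in 8 genes that the report prints. TPX2 and the other copies of MYC2, COI1 and PIF1 were not included in this check. The difference was 3.31 for Migut.A00165, 1.24 for Migut.A00013 and -1.64 for Migut.J00549. It was -2.31 for GA3ox1 (Migut.I00834), 2.19 for OPR1 (Migut.B00747), -1.25 for MYC2 (Migut.E00934), -0.63 for JAZ3 (Migut.D02043) and 0.56 for SOS1 (Migut.E00570).

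In 68 checks for a plant far from its group, 1 stood out. OPR1 (Migut.B00747) was lowest at 8leaf in plant 10, with a gap to the next plant of 0.487 of the group's range (critical value 0.466), and chance alone flags about 1 in 20 such groups.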

How the results depend on the processing

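The number of calls between 8leaf and 6leaf depended on the settings. Other tests gave 146 genes (voom and limma) and 323 (DESeq2), and a test against an absolute log2 fold change of 0.5 gave 4. Scaling by library size alone gave 207, and no filter on low counts 179. Within pools 1, 2, 3 and 4 there were 0, 33, 0 and 0, with 585, 587 and 751 genes at an unadjusted p below 0.05 in pools 1, 3 and 4. Pool 2 held 8leaf plants 1 and 4. Leaving out 1 plant at a time gave 40 to 174, and leaving out 8leaf plants 1, 4 and 10 gave 24. The same plant number across stages did not pair the plants, since same-numbered plants deviated together in 3 of 10 pairs only (correlation of deviations -0.234 to 0.289) and 0 of 10 correlated best with their own number. After removing pool as well, 2 of 10 pairs were over 0.1 (-0.428 to 0.29) and 2 of 10 plants correlated best with their own number. With the plant number as a replicate block 51 genes were called, 42 of them among the 112. The RLE and upper-quartile scalings, the other filters, no pool term and fits of 40 or 80 libraries gave 89 to 167.

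The difference between the last and the first Coast step was called in 433 genes with no pool term and in 400 with all 80 libraries in 1 fit, against 669, and in 579 to 872 otherwise, 637 with the replicate block. Scaling by library size alone turned its split from 340 higher and 329 lower to 268 and 446. The count of genes also higher in the Inland step was 18 of 23 without 8leaf plants 1, 4 and 10, and otherwise 45 to 59. The share of distances with stage was between 7.98% and 9.93% under other prior counts, filters, scaling and gene sets and without the pool term. It was not recomputed without 8leaf plants 1, 4 and 10. Of the 30 genes taken by the naming rule, 1 changed sign, in an edgeR fit of pool 4 alone (log2 fold change -0.073). The causes were not tested.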
